A study of Caenorhabditis elegans with 40 samples.

Results

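A pair of long-lived mutants of Caenorhabditis elegans was set directly against each other: raga-1(ok386), strain VC222, and age-1(hx546), strain TJ1052, both kept on empty vector bacteria. The comparison used 8 of the 40 libraries of the series, namely every library that the labels give as empty vector in either mutant, 4 per genotype. RNA was taken from whole animals on day 1 of adulthood, and the vector bacteria had been given since hatching, so all groups share that diet. Wild type N2 on empty vector (4 libraries) served as the reference for direction, and the same mutants on RNAi against the spliceosome gene repo-1 (4 libraries each) gave a repeat of the contrast in other animals. The label's replicate number is also its batch, so each of the 4 batches held 1 library of every group. Separate cultures for the libraries of 1 group are not recorded in the labels. The p-values measure the spread between libraries of the same group, estimated over all 40 libraries, and that spread may be technical.

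raga-1 encodes a Rag GTPase, which tells the TOR complex that amino acids are present, and TOR in turn promotes translation and ribosome production and restrains autophagy and lysosome genes. age-1 codes for the phosphoinositide kinase subunit that signals below the insulin receptor DAF-2, and its loss lets the FOXO transcription factor DAF-16 enter nuclei and switch on stress defence genes. The ok386 allele is a deletion, whereas hx546 is a substitution that lowers the function of the kinase. Mutants of either gene live long, and each was measured here as a constitutive whole-body mutant, so fewer cells of a type and less RNA per cell cannot be told apart.

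The 4 raga-1 libraries held 7.69 to 27.6 M reads and the 4 age-1 libraries 14.8 to 24.9 M reads. Correlations of log2 values were 0.952 to 0.987 within raga-1, 0.983 to 0.991 within age-1 and 0.946 to 0.973 between the mutants. In a principal component analysis of the 8 libraries, raga-1 replicate 1, which was also the shallowest, stood apart with a first component of -69.5 against -20.7 to -17.7 in the other raga-1 libraries and 31.02 to 33.1 in age-1. Single gene calls that were lost without a library are named as such. Counts over a gene list are given again without raga-1 replicate 1, and under quantile normalization, where either direction moved by over 1.5 times and by more than 1 gene. Values below are the authors' size-factor normalized counts per gene. Log2 fold changes are raga-1 relative to age-1 on the log2(value + 1) scale, n = 4 per group. Their standard error (SE) from limma rests on the spread within groups over all 40 libraries, not on these 8 alone.

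The targeted genes were read first. raga-1 RNA stood at 32.01, 49.5, 27.5 and 45.5 normalized counts in the raga-1 libraries and at 1558, 1601, 1563 and 1571 in age-1, a log2 fold change of -5.35 ± 0.31 (limma adjusted p = 5.79e-16). All raga-1 libraries lay far below all age-1 libraries, and wild type held 1463, 1539.7, 1521 and 1533. age-1 RNA was 1854, 2000.1, 2015 and 2098 in raga-1 against 2271, 2413, 2642 and 2597 in age-1 (log2 fold change -0.32 ± 0.11, limma adjusted p = 0.0187). Its libraries did not overlap and the lower values were those of raga-1, while age-1 itself did not differ detectably from wild type (log2 fold change -0.09 ± 0.11, limma adjusted p = 0.724), so RNA level is no check on a substitution allele. The age-1 call was lost without age-1 replicates 3 or 4 or raga-1 replicate 1 (limma adjusted p = 0.0505 to 0.0549). raga-1 spans chromosome II, 11301359 to 11302776, and age-1 spans chromosome II, 11519328 to 11527054, in the Ensembl annotation of WBcel235.

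The mutants differed widely. Of 12327 genes tested, 5241 (42.5%) passed an adjusted p of 0.05 in limma and are called below, 2349 (19.1%) higher and 2892 (23.5%) lower in raga-1. The median log2 fold change over all tested genes was -0.03. A change of over 2-fold was reached by 518 called genes upwards and 364 downwards, and in 4119 tested genes (33.4%) the 4 libraries of 1 mutant all lay above the 4 of the other. Without raga-1 replicate 1, 4401 of the calls were made again with the same sign. When only the compared groups were fitted, 3923 were made again with the same sign. Against wild type, 5684 genes (46.1%, 19.7% higher and 26.4% lower) were called in raga-1 and 1045 (8.48%, 4.76% higher and 3.72% lower) in age-1 (653 without age-1 replicate 1 and 1638 with array weights), comparisons that share their libraries with the direct contrast and with each other and are given below side by side.

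The parts of the TOR and energy-sensing machinery moved little, apart from raga-1 itself. Of 25 measured components, 5 (20%) were higher in the raga-1 mutant and 7 (28%) lower, raga-1 itself among the lower ones. Over all genes, 42.5% were called, 19.1% higher and 23.5% lower. The list median was -0.08. Without raga-1 replicate 1 the list gave 3 higher and 4 lower, and under quantile normalization 5 higher and 3 lower. hlh-30, which encodes the TFEB-like factor that drives lysosome and autophagy genes, had the largest rise of the list. Its values were 1961, 1550.3, 1548 and 1502 in raga-1 and 1125, 1113, 1218 and 1154 in age-1 (log2 fold change 0.50 ± 0.07, limma adjusted p = 2.39e-07). No raga-1 library came down to the age-1 range, and raga-1 replicate 1 was the highest by a wide margin.

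aak-2, a catalytic subunit of AMP-activated kinase, stood at 1235, 1099, 1140.0 and 1071 in raga-1 and 998, 896, 947 and 968 in age-1 (log2 fold change 0.25 ± 0.06, limma adjusted p = 0.000866), again without overlap. sesn-1, the worm sestrin and a sensor upstream of TOR, stood at 648, 507, 512 and 546 against 434, 415, 452 and 474 (log2 fold change 0.31 ± 0.09, limma adjusted p = 0.00547). Both were higher in every raga-1 library. The AMP kinase subunits aakb-1 (0.23) and aakg-1 (0.16) were the other called rises. On the lower side were ragc-1 (-0.17), the partner GTPase of raga-1, daf-15 (-0.17), the worm Raptor, par-4 (-0.16), the kinase that activates AMP kinase, flcn-1 (-0.15), nprl-2 (-0.21) and pha-4 (-0.43), a FoxA factor. The aakb-1 call was lost without age-1 replicates 2, 3 or 4 or raga-1 replicate 1 (limma adjusted p = 0.0641 to 0.243). The aakg-1 call was lost without age-1 replicates 2 or 4 or raga-1 replicates 1 or 3 (limma adjusted p = 0.0609 to 0.171). The ragc-1 call was lost without age-1 replicate 4 or raga-1 replicate 1 (limma adjusted p = 0.0604 to 0.0756). The daf-15 call was lost without age-1 replicate 3 or raga-1 replicate 4 (limma adjusted p = 0.0521 to 0.0593). The flcn-1 call was lost without age-1 replicates 1 or 4 or raga-1 replicates 1 or 2 (limma adjusted p = 0.0508 to 0.0763). The nprl-2 call was lost without age-1 replicates 3 or 4 or raga-1 replicate 1 (limma adjusted p = 0.0683 to 0.185). The pha-4 call was lost without age-1 replicates 1 or 2 or raga-1 replicates 1, 2 or 4 (limma adjusted p = 0.0604 to 0.178). let-363, the TOR kinase, at -0.09 ± 0.06 and rsks-1, the S6 kinase, at 0.01 ± 0.04 did not pass.

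Of 21 insulin pathway components, 6 (28.6%) were higher and 6 (28.6%) lower (list median -0.03), against 19.1% and 23.5% of all genes. Under quantile normalization 7 were higher and 4 lower and the median turned to 0.05. pqm-1, a zinc finger factor that acts in opposition to nuclear DAF-16, changed most. Its values were 533, 435, 657 and 564 in raga-1, 229, 192, 289 and 191 in age-1 and 185, 266.4, 195 and 257 in wild type (log2 fold change 1.28 ± 0.14, limma adjusted p = 6.17e-09). The raga-1 libraries alone were high, and age-1 overlapped wild type. daf-16 RNA itself stood at 3262, 3388, 3284 and 3083 in raga-1 and 2524, 2745, 2565 and 2591 in age-1 (log2 fold change 0.32 ± 0.05, limma adjusted p = 1.18e-05), with no overlap.

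akt-2, a kinase that keeps DAF-16 out of nuclei, went the other way. It stood at 122.7, 197, 195 and 186 in raga-1, 263, 244, 243 and 238 in age-1 and 147, 128, 111 and 136 in wild type (log2 fold change -0.52 ± 0.12, limma adjusted p = 0.000417). The age-1 libraries were the highest of the 3 genotypes, and raga-1 replicate 1 fell within the wild type range. ist-1, an insulin receptor substrate, was likewise lower in raga-1 (-0.51), as were akt-1 (-0.19), age-1 (-0.32), the phosphatase subunit pptr-1 (-0.27) and the deubiquitylase math-33 (-0.14). The remaining called rises were shc-1 (0.35), sgk-1 (0.34), pdk-1 (0.26) and the 14-3-3 gene ftt-2 (0.25). daf-2, the receptor, did not pass at 0.06 ± 0.04. The shc-1 call was lost without age-1 replicates 3 or 4 or raga-1 replicates 1, 2 or 4 (limma adjusted p = 0.0649 to 0.116). The sgk-1 call was lost without age-1 replicate 1 (limma adjusted p = 0.0547). The pdk-1 call was lost without raga-1 replicate 1 (limma adjusted p = 0.0546). The math-33 call was lost without age-1 replicates 3 or 4 or raga-1 replicate 1 (limma adjusted p = 0.0592 to 0.0989). The plot of component fold changes shows both lists.

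**Figure D1:**
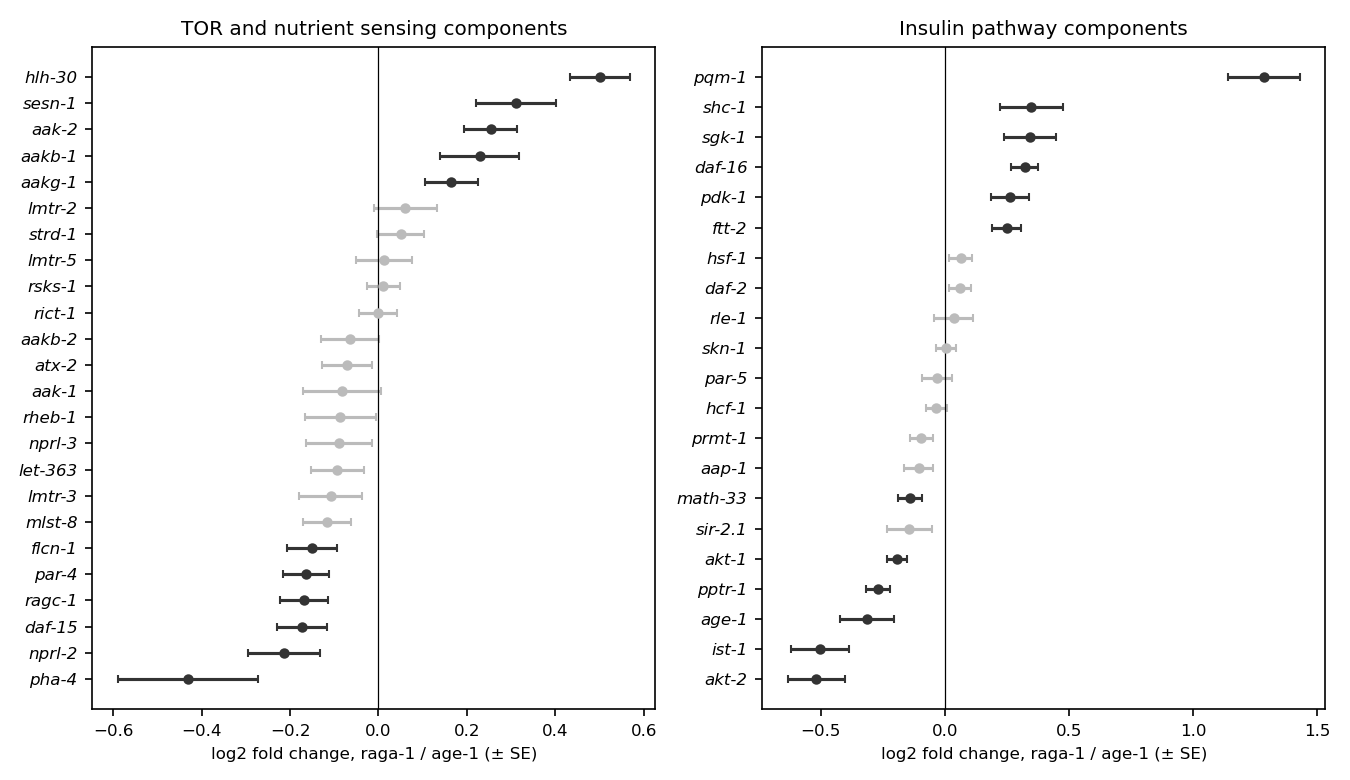
Log2 fold change of raga-1 relative to age-1 (x axis, n = 4 libraries per mutant). Left, each measured TOR and nutrient sensing component other than raga-1, and right, each insulin pathway component. Error bars are the SE from limma, with the spread taken over all 40 libraries. Points are dark where called at an adjusted p of 0.05 and grey where not. Most points lie close to 0, with pqm-1 at 1.28 and hlh-30 at 0.50 to the right and akt-2 at -0.52 to the left.

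Known targets of DAF-16 divided the mutants by class. Of 25 measured genes that DAF-16 activates, 10 (40%) were lower and 2 (8%) higher in raga-1, against 23.5% and 19.1% of all genes. The list median was -0.36 (batch medians -0.31 to -0.11, 4 higher and 10 lower under quantile normalization). Against wild type, 15 rose and 4 fell in raga-1, and 19 rose and 0 fell in age-1, with list medians of 0.42 and 0.78. lea-1, which encodes a desiccation-protective protein, stood at 6719, 7446, 6426 and 6856 in raga-1, 22118, 22630.5, 23599 and 22325 in age-1 and 4923, 5476, 4877 and 5417 in wild type (log2 fold change -1.73 ± 0.07, limma adjusted p = 1.28e-19). The age-1 libraries were several times higher than all others, with raga-1 a little above wild type.

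sod-3, the mitochondrial manganese superoxide dismutase, stood at 48.0, 50.9, 50.9 and 27.3 in raga-1 and 98.8, 124, 112.2 and 105 in age-1 (log2 fold change -1.33 ± 0.17, limma adjusted p = 8.79e-08), and raga-1 overlapped the wild type values of 62.8, 48.9, 48.3 and 38.7. For the metallothionein mtl-1 the values were 115, 56.2, 42.6 and 45.5 in raga-1, 124, 129.9, 119 and 117 in age-1 and 18.1, 18.6, 12.1 and 17.5 in wild type (log2 fold change -1.02 ± 0.34, limma adjusted p = 0.015). Both mutants lay above wild type in mtl-1, raga-1 by less except in replicate 1, which came close to the age-1 range. The mtl-1 call was lost without raga-1 replicates 3 or 4 (limma adjusted p = 0.0514 to 0.0587). The linker histone gene hil-1 (-1.32) and the sphingomyelinase gene asm-2 (-1.48) were also lower in raga-1. The pud genes, a separate list named for a rise in daf-2 mutants, did not divide the mutants in this way. All 5 tested were called higher than wild type in raga-1 (median 0.93) and in age-1 (median 0.84). Between the mutants, 1 of the 5 was called, higher in raga-1.

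The 2 activated targets that were higher in raga-1 were lys-8, a lysozyme, and tps-1, a trehalose phosphate synthase (0.41). lys-8 stood at 2606, 2837, 3017 and 2992 in raga-1, 1821, 1838, 1929.7 and 1856 in age-1 and 1379.7, 1595, 1328 and 1509 in wild type (log2 fold change 0.62 ± 0.08, limma adjusted p = 1.53e-07), so the 3 genotypes formed separate ranges with raga-1 on top.

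Genes that DAF-16 represses showed the largest median of any list with at least 9 tested members. Of 9, 6 were higher and 1 lower in raga-1 (list median 1.61, batch medians 1.68 to 1.75). Here the mutants departed from wild type in opposite directions: 6 rose and 0 fell in raga-1, and 1 rose and 5 fell in age-1, with list medians of 0.79 and -1.48. dod-22, a gene with a CUB-like domain, stood at 171, 202, 259 and 275 in raga-1, 20.8, 11.98, 11.7 and 11.6 in age-1 and 22.4, 83.5, 35.1 and 61.2 in wild type (log2 fold change 3.94 ± 0.27, limma adjusted p = 3.02e-14). All raga-1 libraries were above all wild type libraries, and all age-1 libraries below them.

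dod-24, from the same family, read 296, 616, 580.3 and 521 in raga-1, 39.02, 81.1, 74.0 and 59.6 in age-1 and 275, 269, 265 and 282 in wild type (log2 fold change 2.97 ± 0.32, limma adjusted p = 3.00e-09), and dod-17 read 58.7, 66.9, 99.0 and 83.3, 16.9, 4.61, 10.3 and 11.6 and 37.01, 39.6, 43.9 and 41.2 in the same order (log2 fold change 2.81 ± 0.25, limma adjusted p = 2.83e-11). In both genes the 3 genotypes kept the same order without overlap, raga-1 highest. dod-19 followed (1.61), and the exception was dod-18 (-0.45). The dod-18 call was lost without age-1 replicates 1, 3 or 4 or raga-1 replicate 1 (limma adjusted p = 0.0627 to 0.332). The plot of target genes by library shows these values.

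**Figure D2:**
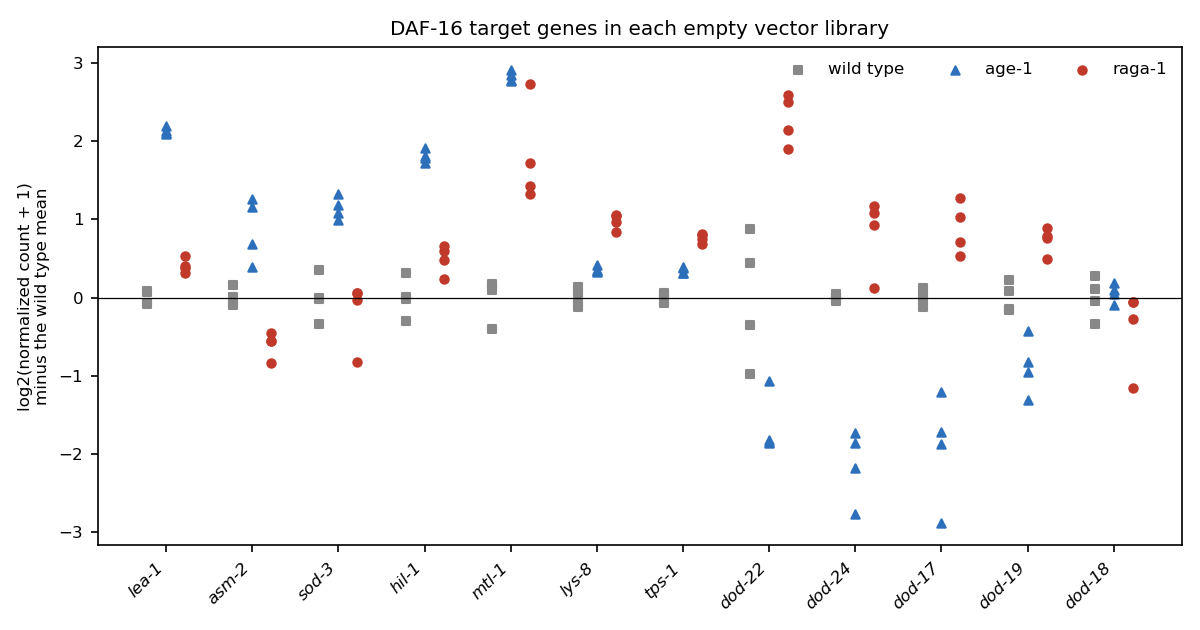
Each point is 1 empty vector library of wild type (squares), age-1 (triangles) or raga-1 (circles), for activated targets (lea-1 to tps-1) and repressed targets (dod-22 to dod-18) of DAF-16; the y axis is log2(normalized count + 1) minus the wild type mean of the gene. For dod-22, dod-24, dod-17 and dod-19 the age-1 points lie below 0 and the raga-1 points above it, whereas for lea-1, sod-3, hil-1 and mtl-1 age-1 lies above raga-1.

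Among abundant named genes, the largest rises in raga-1 over age-1 included transporters and metabolic enzymes. drd-50 stood at 251, 254, 193 and 202 in raga-1, 7.80, 9.22, 2.2 and 6.97 in age-1 and 25.8, 49.8, 46.1 and 51.2 in wild type (log2 fold change 5.02 ± 0.27, limma adjusted p = 3.81e-17), the widest rise among the 15 genes named by size. sysm-1 (T24B8.5), a reporter gene of the p38 immune pathway, stood at 728, 811, 1008 and 885 in raga-1 and 44.2, 48.9, 24.9 and 31.7 in age-1 (log2 fold change 4.52 ± 0.28, limma adjusted p = 4.51e-15). The choice of the 15 genes named by size required no overlap between the mutants. For sysm-1, age-1 lay within or below the wild type values of 50.8, 105, 43.9 and 72.4.

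gpdh-1, a glycerol 3-phosphate dehydrogenase that makes glycerol under osmotic stress, read 387, 493, 579 and 598 in raga-1 and 45.5, 47.9, 38.9 and 45.7 in age-1 (log2 fold change 3.48 ± 0.20, limma adjusted p = 2.20e-16), with wild type at 30.1, 27.8, 53.8 and 28.7. The inositol transporter hmit-1.1 (2.35) was higher too, and 3 of 5 genes of osmolyte supply were called higher, gpdh-2 (0.15) being the third of them, and 1 was called lower, the related transporter hmit-1.2 (-0.46). catp-3, a P-type cation pump, stood at 2859, 2916, 3729 and 3105 in raga-1 against 451, 395, 144 and 389 in age-1 (log2 fold change 3.30 ± 0.21, limma adjusted p = 1.07e-14). asns-2, an asparagine synthetase, stood at 3332, 3412, 3875 and 3918 against 974, 615, 326 and 513 (log2 fold change 2.69 ± 0.19, limma adjusted p = 1.16e-13). Replicate 3 was the lowest age-1 library in both catp-3 and asns-2, yet every age-1 library exceeded the wild type values of 140.3, 138, 133 and 129 and 265.96, 275, 271 and 259.6 in turn.

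The other rises of this size were the sugar transporter swt-6 (3.55), the aspartyl protease asp-17 (2.97), the ammonium transporter amt-1 (2.76), the triglyceride synthesis enzyme dgat-2 (2.73), the acyltransferase gene oac-6 (2.39) and the lectin clec-209. clec-209 read 3713, 3927, 4083 and 4056 in raga-1, 583, 626, 599.7 and 579.8 in age-1 and 1175, 1272, 1114 and 1274 in wild type (log2 fold change 2.72 ± 0.07, limma adjusted p = 9.86e-28), 3 separate ranges. F56A4.2, named after its values were seen, had almost the same counts in every library, and whether the table splits shared reads between them was not tested. his-58, a histone gene with near-identical copies, was also in the set (4.59), although 2 age-1 libraries were at 0. The his-58 call was lost without age-1 replicates 2 or 4 or raga-1 replicate 1 (limma adjusted p = 0.057 to 0.104). The widest difference of all belonged to T22B7.7, known by a sequence name and singled out after its values were seen. It stood at 1822, 1592, 1147 and 1415 in raga-1, 0, 4.61, 2.2 and 11.6 in age-1 and 296, 249.6, 309 and 306 in wild type (log2 fold change 8.57 ± 0.46, limma adjusted p = 6.51e-17), so age-1 was almost without it and raga-1 was the highest.

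The largest falls, after raga-1 itself, were led by lipl-1, a lysosomal acid lipase. It read 24.01, 20.1, 13.8 and 14.7 in raga-1, 462, 429, 569.7 and 365 in age-1 and 70.6, 222, 85.7 and 272 in wild type (log2 fold change -4.59 ± 0.31, limma adjusted p = 1.79e-14). The age-1 libraries were highest, raga-1 the lowest, and wild type fell into a low pair (replicates 1 and 3) and a high pair (replicates 2 and 4). A sister gene, lipl-3, went the opposite way at 98.7, 69.6, 49.5 and 76.3 in raga-1 and 13.01, 21.2, 26.4 and 29.4 in age-1 (log2 fold change 1.68 ± 0.29, limma adjusted p = 1.69e-05), and lipl-2 fell (-1.95).

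gsto-1, an omega-class glutathione transferase, stood at 24.01, 33.5, 55.0 and 45.5 in raga-1 and 385, 302, 166 and 284 in age-1 (log2 fold change -2.82 ± 0.26, limma adjusted p = 4.15e-11). Other falls of this size were sdz-24 (-3.47), the lectin clec-266 (-2.42), the sphingomyelinase asm-3 (-2.34), the acyl-CoA synthetase acs-2 (-2.17), the F-box gene fbxc-51 (-1.98), the glutathione transferase gst-20 (-1.93) and the collagen dpy-14 (-2.103). his-24, a linker histone H1, read 493, 589, 586 and 435 in raga-1, 2846, 2463, 1231 and 1648 in age-1 and 1827, 1004, 1746 and 999.8 in wild type (log2 fold change -1.89 ± 0.19, limma adjusted p = 3.90e-10). fbn-1, a fibrillin-like matrix protein, read 69.3, 104.4, 128 and 116, 605, 485, 206 and 319 and 331, 148, 324 and 119.8 in the same order (log2 fold change -1.86 ± 0.28, limma adjusted p = 1.68e-06). In both genes age-1 replicates 1 and 2 were higher than 3 and 4, and wild type replicates 1 and 3 higher than 2 and 4, whereas raga-1 was low throughout. The plot of the 15 genes each way by library shows where wild type fell.

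**Figure D3:**
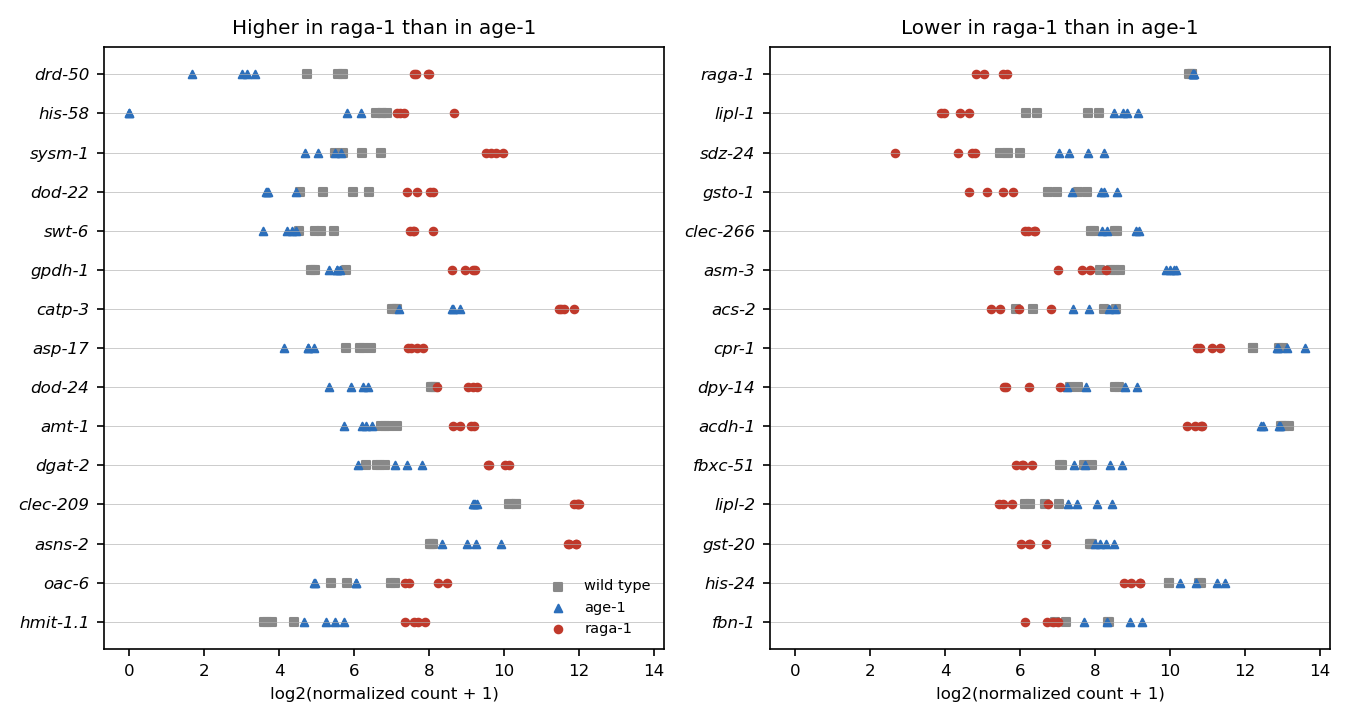
Each row is 1 gene and each point 1 empty vector library (circles raga-1, triangles age-1, squares wild type) on a log2(normalized count + 1) axis, for the 15 genes with the largest rise (left) and fall (right) in raga-1 relative to age-1. Circles and triangles do not overlap in any row, which the choice of genes required, and wild type lies between the mutants for some genes (drd-50, clec-209) and beside age-1 or raga-1 for others.

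Many genes of protein synthesis and folding were called lower in raga-1, by small amounts. Of 78 cytosolic ribosomal protein genes, 59 were lower and 2 higher (list median -0.19, 2 higher and 50 lower without raga-1 replicate 1). The higher ones were rpl-11.2 (0.35) and rpl-25.1 (0.27), each of which has a paralog, and rpl-25.2 was lower (-0.29). Ribosome biogenesis genes were lower in 21 of 36 (median -0.16), aminoacyl-tRNA synthetases in 24 of 32 (median -0.21) and translation factors in 13 of 23, with eif-3.I higher (0.18). Under quantile normalization the biogenesis list gave 17 lower and 2 higher, and the translation factors 7 lower and 4 higher. Mitochondrial ribosomal proteins were lower in 23 of 67 (34.3%, median -0.13), with 1 higher, against 23.5% of all genes called lower.

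nol-56, a core protein of the snoRNA particles that modify ribosomal RNA, stood at 4292, 4659, 4836 and 4699 in raga-1 and 6921, 6479, 7011 and 6880.3 in age-1 (log2 fold change -0.56 ± 0.04, limma adjusted p = 3.47e-13). fib-1, fibrillarin, its partner in those particles, stood at 8309, 7666, 7404 and 7170.1 against 11799.7, 10912, 10533 and 10703 (log2 fold change -0.53 ± 0.06, limma adjusted p = 1.78e-09). Neither overlapped. Among synthetases, gars-1 (-0.49) and fars-1 (-0.47) fell most, and among large-subunit proteins rpl-37 (-0.52). The rpl-37 call was lost without raga-1 replicate 1 (limma adjusted p = 0.0756). The rpl-25.1 call was lost without age-1 replicate 4 or raga-1 replicate 3 (limma adjusted p = 0.0573 to 0.0607).

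Against 23.5% of all genes called lower, proteasome subunit genes were lower in 29 of 33 (87.9%, median -0.24), led by rpn-7 (-0.39). Chaperonin and DnaJ genes were lower in 23 of 43 (53.5%) with 3 higher. Heat shock proteins were lower in 11 of 19 (57.9%), and hsp-17 was higher (1.01). hsp-60, the mitochondrial chaperonin, read 6565, 6912, 6491 and 6919 in raga-1, 13194, 12265, 11901 and 11977 in age-1 and 11754, 12207, 12314 and 11022 in wild type (log2 fold change -0.88 ± 0.07, limma adjusted p = 2.40e-12), overlapping between age-1 and wild type and lower in every raga-1 library. Transcripts of the mitochondrial genome were lower in 8 of 12 (66.7%, median -0.45), for example nduo-1 (-0.72), a subunit of complex I. Nuclear genes of the respiratory chain gave 9 lower and 3 higher of 42. That is 21.4% lower, near the 23.5% of all genes. The largest rise of this list was gas-1 (0.81), also of complex I. Under quantile normalization the nuclear list gave 7 higher and 9 lower. Vitellogenin genes made up 21 to 23.6% of all normalized counts in raga-1 and 14.1 to 15.5% in age-1, a difference in library makeup whose part in the small, broad decreases was not tested. Under quantile normalization, 49 of the cytosolic ribosomal and 25 of the proteasome genes were still lower.

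The yolk proteins themselves divided. vit-2, a yolk precursor secreted by the intestine, stood at 1462611, 1253238, 1217914 and 1189811 in raga-1, 707909.7, 684599, 605912 and 679596 in age-1 and 627895, 680416, 610070.4 and 621339 in wild type (log2 fold change 0.93 ± 0.09, limma adjusted p = 1.21e-10). The raga-1 libraries were all above the others and age-1 overlapped wild type. vit-5 (0.92) and vit-6 (0.89) rose alike. vit-1 was lower, at 147754, 164155, 174252 and 159331 in raga-1 and 245002, 224189, 195528 and 219797 in age-1 (log2 fold change -0.45 ± 0.14, limma adjusted p = 0.00731), and the remaining 2 of 6 did not pass. Quantile normalization assigns the top-ranked genes the same value in every library, and none of the yolk rises passed there.

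Several fatty acid desaturases were higher. fat-2, which makes linoleic acid, stood at 17557, 15923, 15876 and 15686 in raga-1, 6809.6, 6784, 7094 and 6855 in age-1 and 5332, 5175, 5372 and 4638 in wild type (log2 fold change 1.24 ± 0.06, limma adjusted p = 1.28e-17). fat-7, a stearoyl-CoA desaturase, stood at 440.1, 351, 509 and 523 against 142, 114.3, 118 and 147 (log2 fold change 1.79 ± 0.43, limma adjusted p = 0.00103). Neither overlapped, and fat-5 (1.13) and fat-1 (0.91) were also higher. Of 14 desaturases and elongases, 6 (42.9%) were higher and 3 (21.4%) lower, against 19.1% and 23.5% of all genes. Among the lower ones were elo-2 (-0.49) and elo-5 (-0.37). The elo-5 call was lost without age-1 replicates 3 or 4 or raga-1 replicate 1 (limma adjusted p = 0.0515 to 0.0666).

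The propionate shunt breaks down propionate when vitamin B12 is short. It was lower in all 5 of its genes (median -0.71, batch medians -0.92 to -0.56), against 23.5% of all genes called lower. Its first enzyme, acdh-1, read 1814, 1845, 1399 and 1618 in raga-1, 5772, 5542, 7810.3 and 7687 in age-1 and 9324, 8043, 8176 and 8554 in wild type (log2 fold change -1.996 ± 0.19, limma adjusted p = 1.24e-10). Every raga-1 library was far below the others. hphd-1 (-1.05), hach-1 (-0.71), ech-6 (-0.69) and alh-8 (-0.38) followed, as did nhr-68 (-1.04), a nuclear receptor known to activate the shunt. Of the 6 genes of the B12-dependent route, 3 were lower, the widest fall being -0.26 (mce-1). The mce-1 call was lost without age-1 replicate 1 or raga-1 replicate 4 (limma adjusted p = 0.0571 to 0.061). In the methionine cycle, sams-3, an S-adenosylmethionine synthetase, was lower (-0.87) and cth-1, a cystathionine lyase, higher (0.94). Genes of fatty acid activation and beta oxidation split evenly, 16 higher and 16 lower of 55. That is 29.1% each way, against 19.1% higher and 23.5% lower over all genes. In sugar metabolism, tps-2 (1.07), the second trehalose synthase, was higher and pck-2 (-0.60), a PEP carboxykinase, lower.

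Lysosomal genes were mixed rather than uniform. Of 20 subunits of the vacuolar proton pump, 9 (45%) were higher and 2 (10%) lower (median 0.11). Of 20 lysosomal proteases, 11 (55%) were higher and 6 (30%) lower. Over all genes, 19.1% were called higher and 23.5% lower. asp-14, an aspartyl protease, stood at 2078, 1837, 1814 and 2023 in raga-1 and 688, 699.5, 784 and 652 in age-1 (log2 fold change 1.46 ± 0.11, limma adjusted p = 1.09e-12), without overlap. cpr-1, a cathepsin B-like cysteine protease, stood at 2579, 2210.2, 1682 and 1774 against 7603, 7427, 12366 and 8903 (log2 fold change -2.13 ± 0.17, limma adjusted p = 1.79e-12), with wild type at 4797, 8355, 4731 and 7638. The age-1 and wild type ranges overlapped and raga-1 lay below both. cpr-5 was lower as well (-1.06).

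Autophagy genes gave 8 higher and 5 lower of 26 (median 0.07, batch medians -0.03 to 0.07, 8 higher and 3 lower under quantile normalization). That is 30.8% higher and 19.2% lower, against 19.1% and 23.5% of all genes. epg-5 (0.58), which acts in autophagosome maturation, atg-2 (0.37) and the receptor sqst-1 (0.35) were higher. epg-2 (-1.27) and sepa-1 (-0.85), which act in the clearing of P granule proteins in embryos, were lower.

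Detoxification and immune families are read against 19.1% of all genes called higher and 23.5% called lower. UDP-glucuronosyltransferases gave 21 higher and 10 lower of 52 (22 higher and 5 lower without raga-1 replicate 1), with ugt-66 at 3.19. Glutathione transferases gave 6 higher and 12 lower of 32, and cytochrome P450 genes 9 higher and 12 lower of 55 (16.36% and 21.8%, near those shares), with cyp-13A2 at 2.31. Among superoxide and peroxide enzymes 8 of 16 were lower, ctl-3 (-0.63), a catalase, among them, and sod-4 was higher (0.43). Under quantile normalization 5 of these enzymes were lower and 2 higher. The sod-4 call was lost without raga-1 replicate 1 (limma adjusted p = 0.0783). Metal-handling genes gave 12 higher and 5 lower of 30, and the metallothionein mtl-2 was higher (1.17) where mtl-1 was lower. C-type lectins gave 31 higher and 12 lower of 81 (38.3% and 14.8%), lysozymes and saposin-like genes 12 and 6 of 25 and transthyretin-related genes 18 and 4 of 45 (40% and 8.89%). Antimicrobial peptides gave 4 higher and 5 lower of 25 (16% and 20%), and 6 higher and 4 lower without raga-1 replicate 1.

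Many genes of the nervous system were called higher in raga-1. Neuropeptide genes gave 54 higher and 3 lower of 91 (median 0.51, batch medians 0.47 to 0.58), against 19.1% of all genes called higher. Under quantile normalization the list gave 35 higher and 4 lower (median 0.33). Its summed level overlapped between the mutants, at 0.0957 to 0.103% of normalized counts in raga-1 and 0.0908 to 0.0969% in age-1. flp-8, an FMRFamide-like peptide gene, stood at 160.0, 154, 169 and 179.8 in raga-1, 40.3, 35.02, 46.9 and 39.5 in age-1 and 75.7, 77.6, 90.1 and 73.6 in wild type (log2 fold change 2.01 ± 0.14, limma adjusted p = 2.21e-14), 3 separate ranges with age-1 lowest. The markers of neurons gave 19 higher and 1 lower of 38 (median 0.38), among them the choline transporter cho-1 (1.08) and rgef-1 (0.72). The rgef-1 call was lost without age-1 replicate 2 or raga-1 replicates 2 or 3 (limma adjusted p = 0.0869 to 0.136). The summed level of the neuron markers was 0.11% of normalized counts in raga-1 replicate 1, 0.0825 to 0.084% in the other raga-1 libraries and 0.0757 to 0.0798% in age-1. Markers of body wall muscle gave 10 higher and 1 lower of 32, of the pharynx 8 and 2 of 20, of the intestine 10 and 7 of 25, of the hypodermis 4 and 6 of 19 and of the gonadal sheath and spermatheca 4 and 3 of 17. Without raga-1 replicate 1 the hypodermis list gave 6 higher and 5 lower and the gonadal list 6 and 3, and under quantile normalization the gonadal list gave 2 and 3. Nuclear hormone receptor genes gave 50 higher and 7 lower of 155, with 30 higher under quantile normalization.

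Cuticle genes depended on the library that stood apart. Their counts are read against 19.1% of all genes called higher and 23.5% called lower. Of 130 collagen genes, 48 were higher and 13 lower (median 0.80), and 74 and 11 without raga-1 replicate 1 (median 1.104). Within batches the collagen median was -0.67 in batch 1 and 0.54 to 1.43 in the others, so the direction turned in batch 1. col-88 stood at 8.0, 79.0, 144 and 169 in raga-1 and 1.3, 0.92, 21.99 and 37.9 in age-1 (log2 fold change 3.03 ± 1.12, limma adjusted p = 0.0278), and its lowest raga-1 library was replicate 1, which overlapped age-1. The col-88 call was lost without age-1 replicates 1 or 2 or raga-1 replicates 2, 3 or 4 (limma adjusted p = 0.054 to 0.117). The abu and pqn genes, many of which encode pharyngeal cuticle proteins, gave 24 higher and 5 lower of 59 (30 higher and 3 lower without raga-1 replicate 1). Molting and hedgehog-related genes gave 18 higher and 14 lower of 88, near the higher share of all genes and below the lower share. Without raga-1 replicate 1 they gave 24 higher and 10 lower. Cuticlin and zona pellucida genes went down more often, 7 lower and 2 higher of 22 (3 higher and 3 lower without raga-1 replicate 1).

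Genes of the germline and embryo were mostly lower in raga-1 where they were called. Their counts are read against 23.5% of all genes called lower and 19.1% called higher. Oocyte and germline genes gave 21 lower and 1 higher of 46 (median -0.09), the germ granule helicase glh-1 (-0.35) falling most and the oocyte maturation gene oma-2 (0.49) rising. Under quantile normalization they gave 11 lower and 10 higher. Early embryonic genes gave 10 lower and 1 higher of 20 (median -0.54), and DNA replication and cell cycle genes 16 and 2 of 38 (4 higher and 9 lower under quantile normalization). Of 30 major sperm protein genes limma called none in either direction at the adjusted threshold, 0 had an unadjusted p under 0.05, and edgeR and DESeq2 called 0 and 0. Spliceosome genes gave 27 lower and 2 higher of 59, repo-1 among the lower ones (-0.31), and 2 higher and 17 lower under quantile normalization. F-box A and B genes gave 31 lower and 9 higher of 97. Without raga-1 replicate 1 they gave 13 higher and 23 lower, where the lower count is near the share of all genes. The plot of gene lists sets these medians in order.

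**Figure D4:**
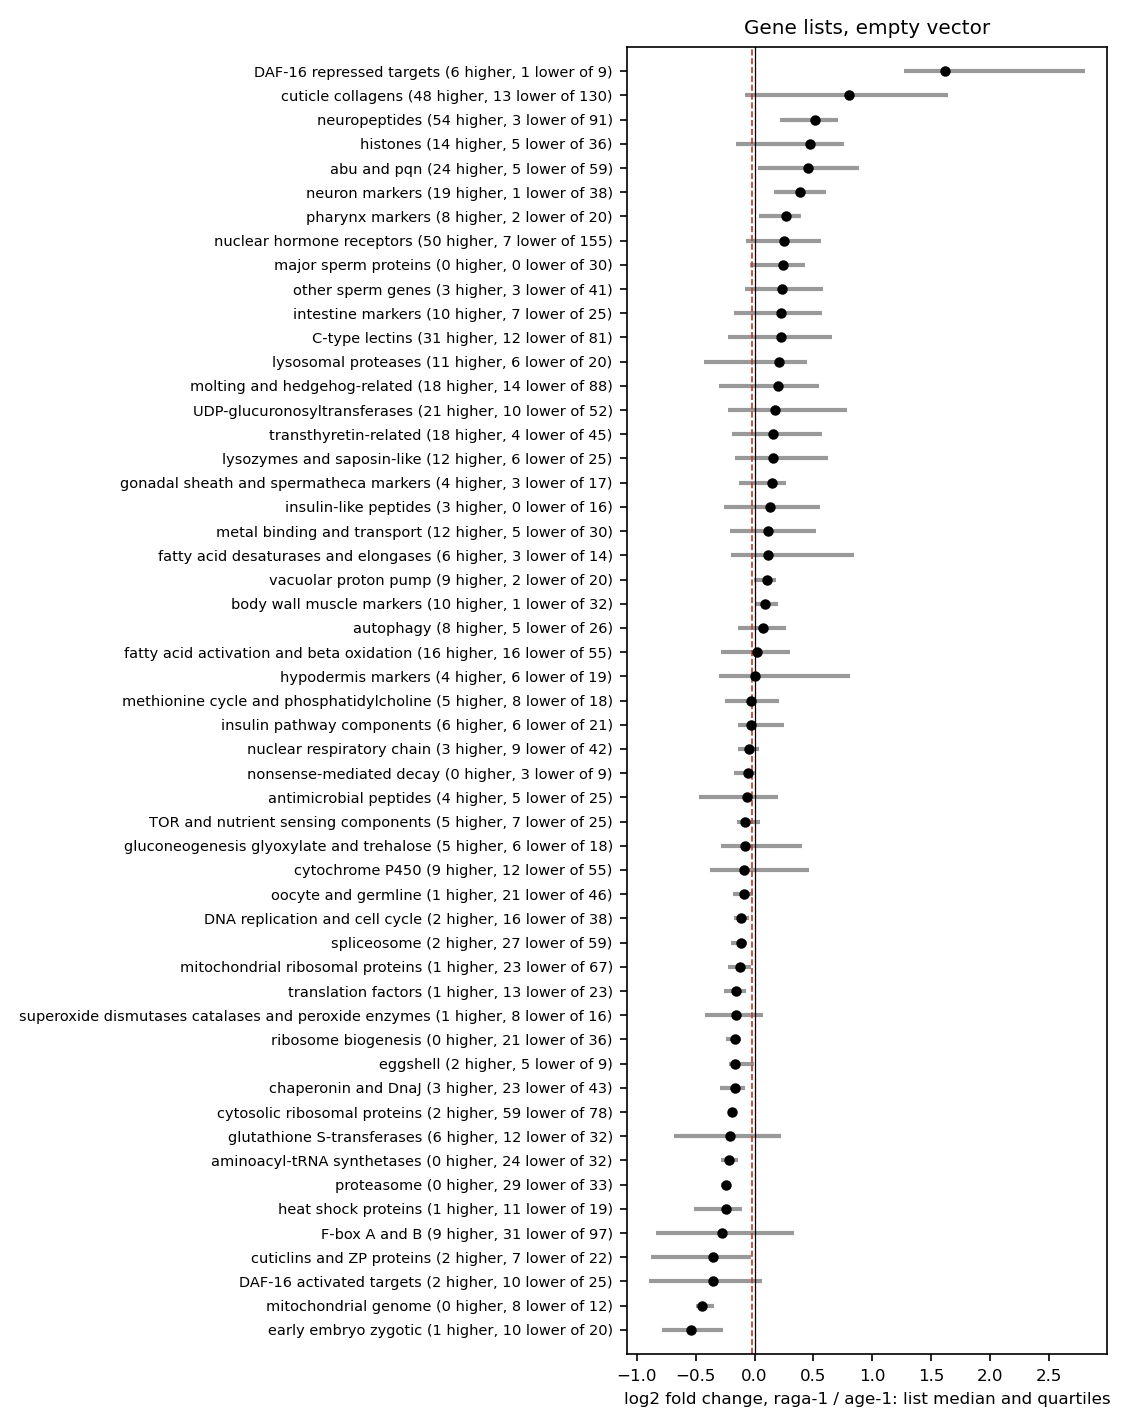
Median (point) and quartiles (bar) of the log2 fold change of raga-1 relative to age-1 on empty vector for each gene list with at least 9 tested members, with the number of called genes in each direction; the dashed line is the median of all tested genes. DAF-16 repressed targets lie at the top (median 1.61) and early embryonic genes at the bottom (median -0.54).

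The same mutants on repo-1 RNAi, which shares no library with the empty vector contrast, gave 9800 called genes (79.5%), 5045 (40.9%) higher and 4755 (38.6%) lower in raga-1 (3572 and 5112 under quantile normalization, which moved the median of all genes from 0.09 to -0.10). Of the 2349 genes called higher on empty vector, 2027 (86.3%) were called higher on RNAi too and 117 were called lower. Of the 2892 called lower, 2223 (76.9%) were called lower again and 166 higher. The loss of raga-1 RNA (log2 fold change -5.25 ± 0.31), lea-1 (-2.19), acdh-1 (-3.69), gpdh-1 (4.65), dod-24 (4.42) and T22B7.7 (10.58) all kept their direction and were called.

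Several lists were further apart between the mutants on RNAi than on empty vector. Proteasome genes were lower in 33 of 33 (median -0.74), aminoacyl-tRNA synthetases in 32 of 32 (median -0.57) and oocyte and germline genes in 44 of 46 (median -0.78), while neuropeptides were higher in 82 of 91 (median 1.19). Other list medians changed sign. DAF-16 activated targets had 13 higher and 5 lower of 25 (median 0.43), and mitochondrial genome transcripts had 5 higher and 0 lower of 12 (median 0.26), that is 41.7% higher against 40.9% of all genes. Under quantile normalization the median was 0.47 for the DAF-16 activated list, 0.44 for the mitochondrial transcripts (9 higher) and 0.61 for the neuropeptides (61 higher). The plot of list medians on both treatments shows these shifts. The major sperm protein genes were higher in 29 of 30 on RNAi.

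**Figure D5:**
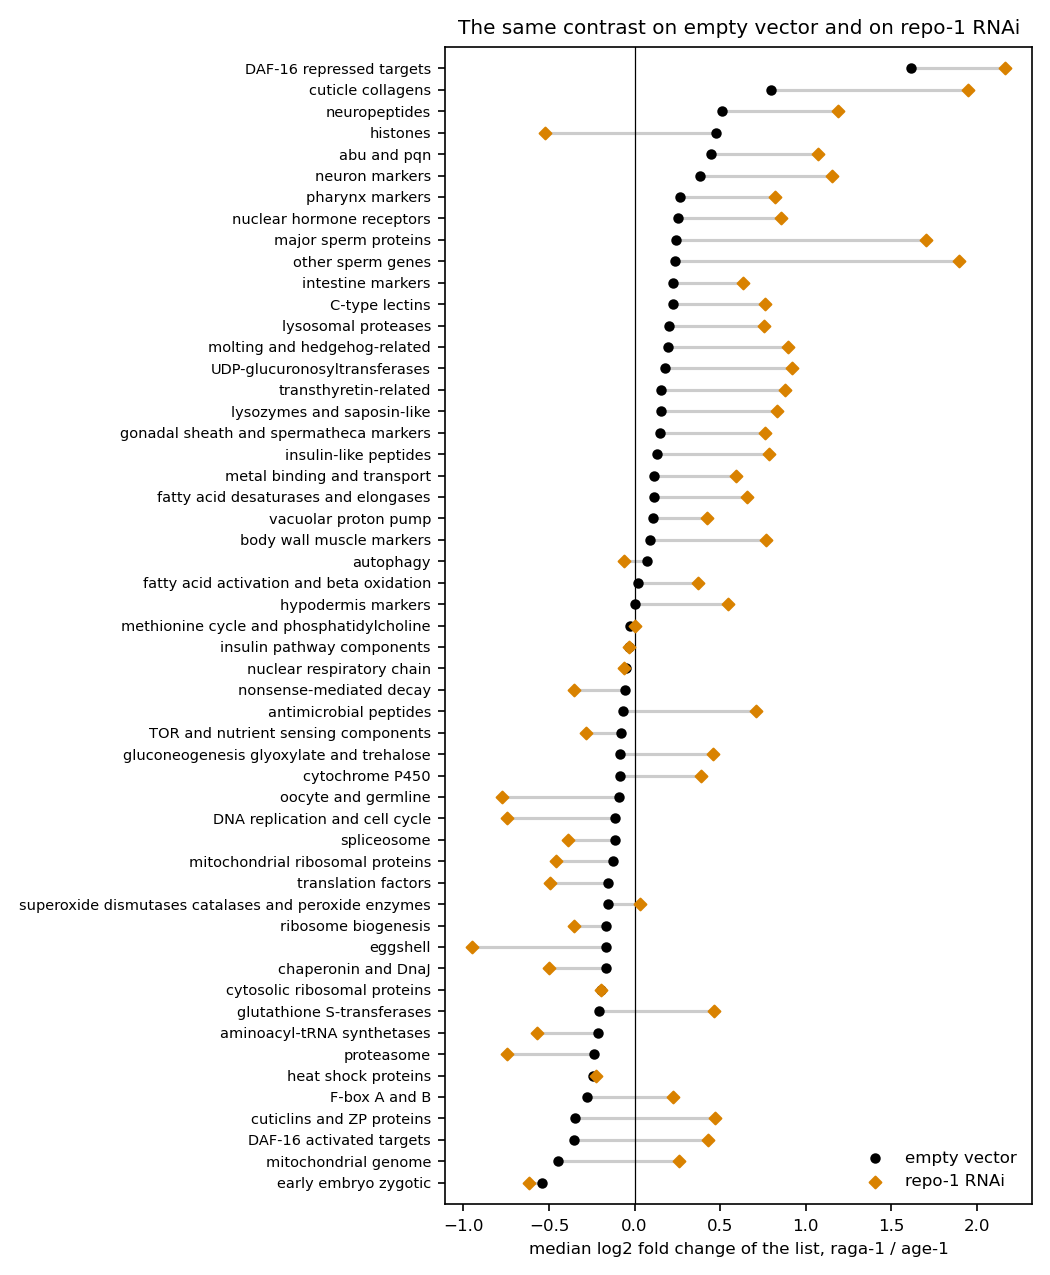
Median log2 fold change of raga-1 relative to age-1 for each gene list with at least 9 tested members, on empty vector (circles) and on repo-1 RNAi (diamonds), in the order of the empty vector medians. The proteasome list moves from -0.24 to -0.74 and the DAF-16 activated list from -0.36 to 0.43.

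The difference between both contrasts, tested as an interaction (empty vector minus RNAi), was called for 6945 genes (56.3%). It was positive in 3489 and negative in 3456, and in 3421 and 2166 under quantile normalization. acdh-1 was further apart on RNAi (-3.69 against -1.996, interaction 1.70 ± 0.27, limma adjusted p = 2.69e-06). hsp-60 likewise differed more on RNAi (-1.47 against -0.88, interaction 0.59 ± 0.10, limma adjusted p = 7.55e-06). drd-50 was less far apart on RNAi (2.09 against 5.02, interaction 2.93 ± 0.38, limma adjusted p = 6.00e-08). For raga-1 itself the interaction was -0.10 ± 0.44 and did not pass.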

How the data were processed

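Messenger RNA libraries of whole animals were made with a stranded Kapa mRNA HyperPrep kit, per the labels' protocols. The authors deposited a normalized signal, and the values are gene counts scaled by a size factor that is constant within a library. The submitters' processing notes name Salmon 0.14.2, FastQC 0.11.8, DESeq2, STAR and MultiQC, with no roles, and build WBcel235. Dividing each column by its smallest step returned whole reads within 0.01 for 100% of values, so edgeR 4.0.16 and DESeq2 1.42.0 could be run on reads of the empty vector libraries as alternatives. The recovered totals, printed above as depth, come from that step.

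The table held 20956 genes, of which 19897 identifiers matched the reference names, and 12327 genes averaging 10 or more across the 40 libraries were tested. limma 3.58.1 (R 4.3.3) fitted log2(value + 1) with a mean per group and an intensity trend to all 40 libraries, which share 1 estimate of the spread, with Benjamini-Hochberg adjustment over all tested genes. The test was checked on simulated counts with the same spread setting for every gene and no library that stood apart. That check does not cover a library such as raga-1 replicate 1.

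Gene lists were matched by symbol, 59 in all, and are described by counts and medians. The comparison, members and lists were chosen with earlier results of these data known. Genes were named if mutated, if in the insulin or TOR lists, if among the 15 largest changes each way that averaged 100 or more in these 8 libraries and had a locus name and no overlap between mutants, if among up to 4 called members per list and direction, or if among the 5 largest interactions each way. T22B7.7, F56A4.2 and alh-8 were named after their values were seen.

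Batch numbers pair the libraries per the labels. Deviations of same-numbered raga-1 and age-1 libraries from their group means correlated at -0.012, 0.068, -0.003 and 0.083, and the fit with the replicate block is an alternative. The table counts reads per gene, so isoforms were not analysed here. Reads shared between near-identical paralogs are not resolved. 1 insulin pathway gene is not reported here and was left out of its list after the values were seen.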

Additional observations from a re-analysis of the deposited data

Results flagged for a closer look

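In 6 of 84 groups of 4 libraries, 1 library stood further from the rest than Dixon's 95% criterion allows, and chance flags about 1 in 20. raga-1 replicate 1 lay at -69.5 on the first principal component of the 8 libraries. akt-2 read 122.7 normalized counts in raga-1 replicate 1, against 186 to 197 in the other raga-1 libraries. hlh-30 read 1961 normalized counts in raga-1 replicate 1, against 1502 to 1550.3 in the other raga-1 libraries. sod-3 read 27.3 normalized counts in raga-1 replicate 4, against 48.0 to 50.9 in the other raga-1 libraries. fat-2 read 17557 normalized counts in raga-1 replicate 1, against 15686 to 15923 in the other raga-1 libraries. dod-22 read 20.8 normalized counts in age-1 replicate 1, against 11.6 to 11.98 in the other age-1 libraries.

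The raga-1 to age-1 contrast differed between empty vector and repo-1 RNAi by the interaction test in 6945 genes. The 5 largest differences below 0 were ddo-2 (-0.39 on empty vector, 2.08 on RNAi, interaction -2.47); dpy-5 (1.60 on empty vector, 3.91 on RNAi, interaction -2.32); fipr-22 (-0.30 on empty vector, 1.78 on RNAi, interaction -2.09); acs-2 (-2.17 on empty vector, -0.15 on RNAi, interaction -2.02); dpy-13 (1.83 on empty vector, 3.85 on RNAi, interaction -2.02). The 5 largest above 0 were nhr-114 (-0.33 on empty vector, -4.36 on RNAi, interaction 4.03); drd-50 (5.02 on empty vector, 2.09 on RNAi, interaction 2.93); pigb-1 (-0.40 on empty vector, -2.61 on RNAi, interaction 2.21); sysm-1 (4.52 on empty vector, 2.49 on RNAi, interaction 2.03); his-65 (0.75 on empty vector, -1.15 on RNAi, interaction 1.90). All 10 passed the limma adjusted threshold for the interaction. The dpy-5 interaction call was lost without age-1 replicate 1 or raga-1 replicate 1 (limma adjusted p = 0.0574 to 0.0732). The dpy-13 interaction call was lost without age-1 replicate 1 or raga-1 replicate 1 or raga-1 replicate 4 on RNAi (limma adjusted p = 0.0542 to 0.101). On empty vector, 4 of these genes lost their call when single libraries were left out. The dpy-5 call was lost without age-1 replicates 2, 3 or 4 or raga-1 replicates 3 or 4 (limma adjusted p = 0.0717 to 0.139). The dpy-13 call was lost without raga-1 replicate 3 (limma adjusted p = 0.0538). The pigb-1 call was lost without age-1 replicates 2, 3 or 4 or raga-1 replicates 1 or 2 (limma adjusted p = 0.0627 to 0.136). The his-65 call was lost without age-1 replicates 1, 2, 3 or 4 or raga-1 replicates 1 or 3 (limma adjusted p = 0.0694 to 0.145). The histone values are to be read with caution. Near-identical copies can share reads, and whether they did here was not tested. Among these genes, fipr-22 read 56.02, 62.9, 197 and 122 in raga-1 and 247, 191, 49.1 and 85.2 in age-1 on empty vector, with the high libraries in different batches in each mutant.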

How the results depend on the processing

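Alternatives were pseudocounts of 0.5 and 5, no filter or a mean of at least 50, quantile normalization, array weights, the compared groups alone, edgeR, DESeq2, each library left out and batches in pairs. The count of called genes for raga-1 against age-1 stayed within 1.5 times the main count in all of them except batches 1 and 2 alone, with 3189 genes (1465 higher and 1724 lower) on fewer libraries, and 4273 in batches 3 and 4. With the compared groups alone it was 4025 (1785 higher and 2240 lower), and 3923 (74.9%) of the main calls were repeated. That setting also ended 11 calls of named genes, quantile normalization ended 16 and array weights ended 9. Apart from the yolk rises under quantile normalization, these losses are not marked above. With single libraries left out the count was 4604 to 5011, 2108 to 2337 higher and 2496 to 2770 lower. With the replicate block it was 5322, and the block moved no count of calls by over 1.5 times. Among the named genes it ended the call of his-65 (limma adjusted p = 0.0502) and no other. edgeR called 5325 (2744 higher), DESeq2 5343 (2642 higher). age-1 against wild type gave 1638 with array weights and 653 to 1313 over single libraries left out, lowest without age-1 replicate 1. The cause was not tested. Of list medians under alternatives, 67 of 1180 moved by more than the spread between libraries. Of single genes named, 175 of 2857 gene and setting pairs lost the call. Directions changed as follows. let-363 (contrast -0.093) became 0.067 in batches 1 and 2 only; pha-4 (contrast -0.43) became 0.021 in batches 3 and 4 only; rsks-1 (contrast 0.011) became -0.020 with array quality weights, -0.023 in batches 3 and 4 only, -0.022 to 0.035 over single libraries left out; ddo-2 (contrast -0.39) became 0.30 in batches 3 and 4 only; fipr-22 (contrast -0.30) became 0.11 with array quality weights, 1.25 in batches 3 and 4 only, -0.72 to 0.046 over single libraries left out; nhr-114 (contrast -0.33) became 0.19 in batches 3 and 4 only. Depth was 7.69 to 27.6 M reads in raga-1. No alternative matched it between libraries, so what it limits was not tested.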
